A study of Bos taurus with 4 samples.

Results

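The genes that sperm use to bind, enter and activate the egg were followed, 10 of them, in the sperm RNA of Murrah buffalo bulls of high and low field fertility. They were ACR, ACRBP, ZPBP, ZPBP2, SPAM1, IZUMO1, PLCZ1, ADAM2, SPACA1 and CRISP2, and they were taken by name from the array's own gene column, whatever their signal. All 10 were found among the 32429 gene names of the array, on 19 of its 51282 probes and on 20 spots per array. RNA of Percoll-selected sperm from breeding bulls was pooled from 2 bulls each, which gave 2 high-fertile pools (adjusted conception rate above the mean of the evaluated bulls by 1 standard deviation) and 2 low-fertile pools (below it by 1 standard deviation). No treatment was given, and each pool was labelled with 1 dye and hybridized to 1 array of a slide that all 4 pools shared. The probes are 60 bases long and were designed on cattle sequence, while the RNA came from buffalo, although the organism label of the samples names cattle. A weak signal can therefore come from a mismatched probe as well as from a scarce transcript, and these cannot be told apart here.

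The acrosome is a secretory granule over the front of the sperm head, built in the spermatid from the Golgi apparatus. When the sperm reaches the egg's coat, the zona pellucida, the granule fuses with the plasma membrane, releases its enzymes and lays bare the membranes that adhere to and fuse with the egg. A sperm phospholipase then sets off the calcium waves that start development. Ejaculated sperm transcribe little or nothing, so their RNA is mostly left over from the testis, and its level is not a measure of the protein in the cell.

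In all 4 pools, 3 of the 10 genes gave a signal well above background. These were ACR, ACRBP and PLCZ1, on 4 probes. ZPBP, ZPBP2, SPAM1 and SPACA1 reached that mark on some arrays, and ADAM2, CRISP2 and IZUMO1 on none. The mark is set by the scanner software for each spot against its background. In all, 8 of the 19 probes carried it on at least 1 array and 11 on none. A probe was tested when both arrays of at least 1 group carried the mark, which held for 7 probes of 6 genes, so that 12 probes and 4 genes (ADAM2, CRISP2, IZUMO1 and SPACA1) have no test. Over the whole array 41.0% of the probes were tested.

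One of the 7 tested probes differed between the fertility groups at an adjusted p of 0.05 in limma, a linear model that borrows the spread between pools across all probes. It was a ZPBP2 probe, lower in the low-fertile pools, and it was admitted to the test only because the high-fertile pair carried the background mark, so the filter itself favoured a lower value and the call is no independent support for a difference. Of the 21033 tested probes 26.8% passed in either direction and 17.6% were lower, so 1 of 7 is not above the background. That background is uneven, since 8145 probes were admitted through the high-fertile pair alone, of which 30.1% were called lower, and 336 through the low-fertile pair alone, of which 50.9% were called higher. Among the 12552 probes marked on all arrays and tested by themselves, 12.9% were lower and 21.6% higher. At an unadjusted p of 0.05 the count of these probes was also 1, against 41.6% of all tested probes. The pools of the 2 groups did not overlap for 3 of the 7 probes, against 69.1% of all tested probes. The methods' t-test, run on these normalized values, passed 0 of the 7 after adjustment, as it passed 0 of the 21024 probes it was run on, and 2 of the 7 had an unadjusted p under 0.05, against 28.9% of all.

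The probes that the results turn on are shown 5′ to 3′ as the array carries them, because each value speaks only for its 60 bases. A pair of ACRBP probes gave opposite directions, and the ZPBP2 probe that passed the test overlaps a dim one. Capitals mark the 26 bases that these ZPBP2 probes share.
ACR A_73_P046001: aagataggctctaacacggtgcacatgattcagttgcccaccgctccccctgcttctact
ACRBP A_73_101496: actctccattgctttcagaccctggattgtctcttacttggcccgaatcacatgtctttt
ACRBP A_73_P052746: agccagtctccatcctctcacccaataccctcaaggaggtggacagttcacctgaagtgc
SPAM1 A_73_P227072: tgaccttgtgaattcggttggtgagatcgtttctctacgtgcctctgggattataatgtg
ZPBP A_73_P046631: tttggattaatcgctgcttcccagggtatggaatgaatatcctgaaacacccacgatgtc
ZPBP2 A_73_103118: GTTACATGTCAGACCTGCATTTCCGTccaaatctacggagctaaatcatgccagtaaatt
ZPBP2 A_73_P467318: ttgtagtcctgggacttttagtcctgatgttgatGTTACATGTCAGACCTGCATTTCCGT
PLCZ1 A_73_P034671: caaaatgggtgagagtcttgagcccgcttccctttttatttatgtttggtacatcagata
No other member probe shared a run of 15 or more bases with another probe of its gene. Across the array's probes, runs of 20 or more bases were searched, and this ZPBP2 pair was the only match. Shorter runs between genes were not searched. Positions below are those printed by the array's grid, on the cattle build Btau_3.1. Whether a probe lies in coding sequence or in an untranslated region was not annotated here.

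ACR encodes acrosin, the trypsin-like protease that is the main enzyme of the acrosomal matrix. Its single probe (an unplaced contig, 61577 to 61636, minus strand) gave processed signals, in linear scanner units with background subtracted, of 255.3 and 262.7 for high-fertile pools 1 and 2 and of 245.1 and 254.5 for low-fertile pools 1 and 2. All 4 arrays were well above background and the groups lay close together. After each array was shifted by its 75th percentile, the log2 level was 2.81 ± 0.02 (SD, n = 2) in the high-fertile and 2.84 ± 0.17 in the low-fertile pools. The difference, low-fertile minus high-fertile as everywhere below, was 0.03 (SE 0.16, adjusted p = 0.887, limma), with a 95% interval of -0.36 to 0.42. A larger change than that in either direction is outside this interval, but a value this near 0 has no settled sign, and it turned under 3 other settings. One of them, spike-in normalization, moved the median of all tested probes to -0.38.

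ACRBP encodes the acrosin binding protein, which holds proacrosin in the granule and takes part in its packing. Both of its probes were well above background on every array, and they pointed in opposite directions. Probe A_73_101496 (chr5:10777987-10778046, plus strand) read 59.63 and 58.98 in the high-fertile pools against 51.66 and 47.23 in the low-fertile pools. Both low-fertile pools were below both high-fertile pools on this probe. Its log2 level was 0.68 ± 0.02 (SD, n = 2) against 0.51 ± 0.04, a difference of -0.18 (SE 0.14, 95% interval -0.53 to 0.17, adjusted p = 0.38, limma). Probe A_73_P052746 (chr5:10772149-10772208, plus strand) lies on the same strand at lower coordinates and read 54.82 and 35.98 against 65.32 and 53.78. On the normalized scale both low-fertile pools were above both high-fertile pools here, at 0.77 ± 0.07 against 0.27 ± 0.44, a difference of 0.50 (SE 0.24, 95% interval -0.09 to 1.09, adjusted p = 0.167, limma). High-fertile pool 2 was the low one on this probe, and without it the difference was 0.19, while leaving out high-fertile pool 1 gave 0.81. Neither probe passed the test as fitted, and the contrast between the probes was not tested.

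**Figure D1:**
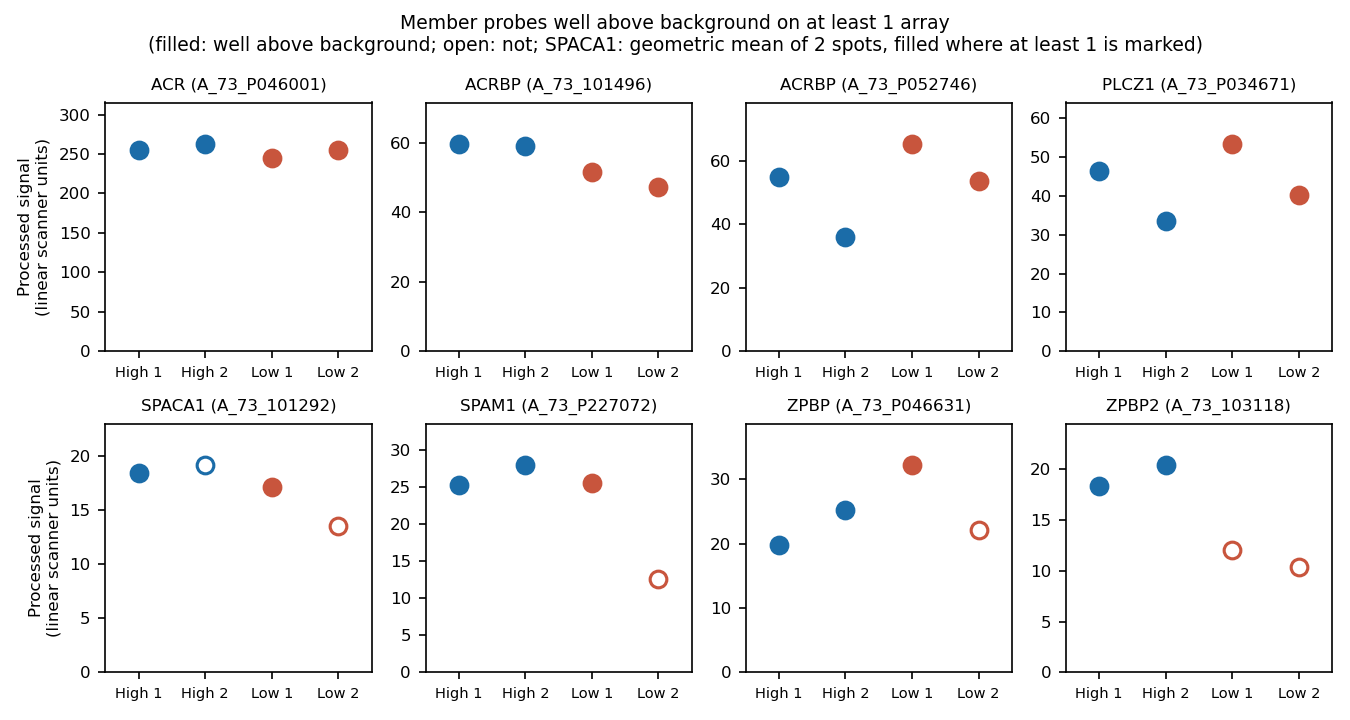
Processed signal (linear scanner units, axis from 0) of the 8 member probes that were well above background on at least 1 array, for high-fertile pools 1 and 2 (blue) and low-fertile pools 1 and 2 (red), with filled points where the scanner software marked the probe and open points where it did not. ACR stayed between 245.1 and 262.7, the ACRBP probes moved in opposite directions, and both low-fertile points of ZPBP2 were open and below its high-fertile points.

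SPAM1 encodes PH-20, the surface hyaluronidase with which sperm pass the cumulus matrix and hold on to the zona. It has 4 probes, of which 1 was tested. That probe (A_73_P227072, chr4:91247079-91247138, plus strand) read 25.27 and 28.02 in the high-fertile pools against 25.60 and 12.57 in the low-fertile pools. Low-fertile pool 2 stood apart at the low end and was the only array on which the probe was not well above background. The log2 level was -0.47 ± 0.09 (SD, n = 2) in the high-fertile and -0.95 ± 0.60 in the low-fertile pools. The difference of -0.48 (SE 0.29, 95% interval -1.21 to 0.25, adjusted p = 0.265, limma) did not pass. It depended on the low-fertile pool kept: leaving out pool 2 gave -0.06, and leaving out pool 1 gave -0.91 (adjusted p = 0.027, limma). The latter sets 1 low-fertile array, the one without the mark and assumed to vary like the high-fertile pair, against 2. The probe entered the test through the high-fertile pair alone, so that p is no independent support for a difference. The other probes of SPAM1 carried the mark on no array. Probe A_73_P251145 read 9.56 and 10.72 in the high-fertile and 8.307 and 6.082 in the low-fertile pools, and the last of these was a surrogate value, which the software writes when a spot is not above its background. Probes A_73_P042361 and A_73_P230882 lay between 3.263 and 7.04.

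ZPBP and ZPBP2 encode the paired zona pellucida binding proteins of the acrosomal matrix, which the spermatid needs to shape the acrosome and the sperm head. The ZPBP probe (A_73_P046631, chr4:5945004-5945063, plus strand) read 19.83 and 25.26 in the high-fertile pools against 32.22 and 22.19 in the low-fertile pools. The groups overlapped, and low-fertile pool 2 again was the array without the mark. The difference in log2 level was 0.34 (SE 0.20, 95% interval -0.16 to 0.85, adjusted p = 0.253, limma), from -0.72 ± 0.24 (SD, n = 2) to -0.38 ± 0.25, and it was -0.03 with spike-in normalization, by the same shift of all probes. Leaving out low-fertile pool 2 gave 0.52, and leaving out low-fertile pool 1 or high-fertile pool 1 gave 0.17 and 0.18.

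ZPBP2 was the one gene of the 10 with a probe that passed the test. Probe A_73_103118 (chr19:41491554-41491613, plus strand) read 18.33 and 20.42 in the high-fertile pools, both well above background, and 12.04 and 10.39 in the low-fertile pools, both without the mark. Both low-fertile pools were below both high-fertile pools. The log2 level was -0.93 ± 0.10 (SD, n = 2) against -1.64 ± 0.02, so the probe measured 1.63-fold higher in the high-fertile pools. This is the measured fold and not a lower limit. Neither low-fertile array carried the mark, but both values were no lower than the lowest marked signal of their array. In limma the difference was -0.70 (SE 0.145, 95% interval -1.07 to -0.34, adjusted p = 0.0209). In the low-fertile pools the probe was brighter than all but 2 of the 308 negative-control spots of each array. That rank does not set it apart from probes without the mark on any array. In low-fertile pool 1, ZPBP2 probe A_73_P361106, at 5.043, also had 2 controls at or above it. The software gave the 10.39 of low-fertile pool 2 an error of 6.675. The call did not hold without high-fertile pool 1 (adjusted p = 0.0695), high-fertile pool 2 (0.111) or low-fertile pool 2 (0.0634) in limma, although the direction did. Of the probes that, like this one, entered the test through the high-fertile pair alone, 73.5% were lower in the low-fertile pools and 30.1% were called lower, so its p is conditional on that filter.

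The remaining ZPBP2 probes were too dim to test. Probe A_73_P467318 (chr19:41491520-41491579, plus strand), which shares the 26 capital bases printed above, read 6.356 and 9.139 in the high-fertile pools against 3.131 and 5.988 in the low-fertile pools, with surrogate values for both of the latter. Probe A_73_P361106 read 8.593 and 8.214 against 5.043 and 5.917, and its last value was a surrogate. After the percentile shift the pools overlapped on A_73_P467318 (-2.53 and -2.02 against -3.56 and -2.45), and no level can be read from values under the background mark.

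**Figure D2:**
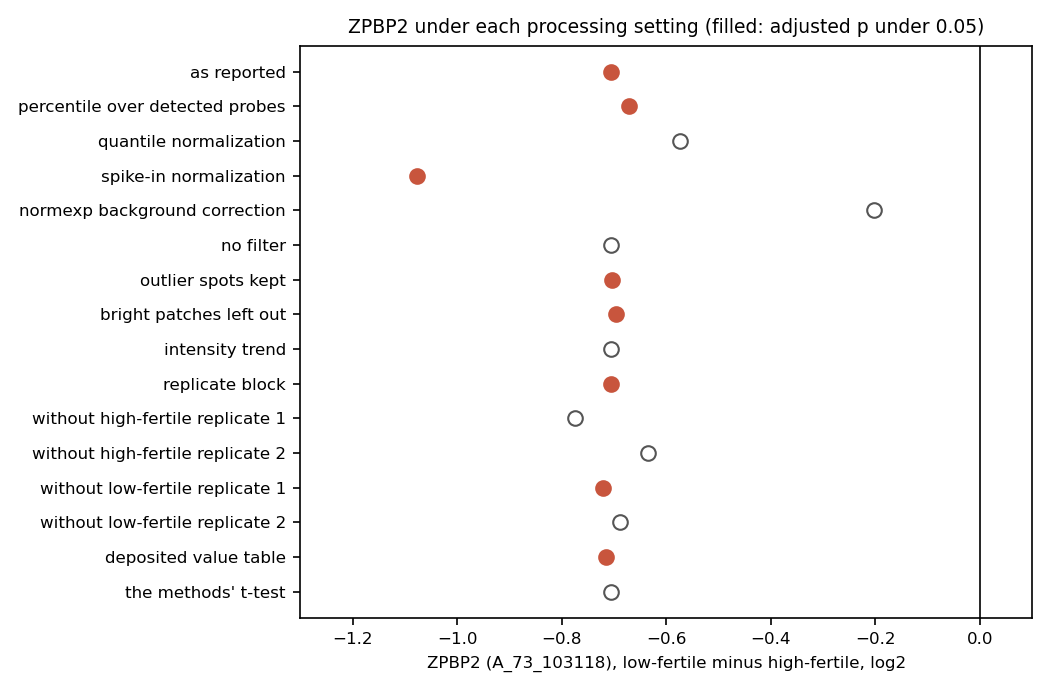
Low-fertile minus high-fertile log2 difference of ZPBP2 probe A_73_103118 as reported and under each of 15 other settings, with filled points where the adjusted p was under 0.05. Every point lies below 0, between -1.08 and -0.20, and 7 of the 15 alternatives kept the call.

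SPACA1 encodes a membrane protein of the acrosome that spermatids need for its formation. Probe A_73_101292 was printed on 2 spots, and the geometric means of their processed signals were 18.5 and 19.2 in the high-fertile and 17.16 and 13.58 in the low-fertile pools. Pool 1 of each group carried the background mark on 1 of the 2 spots, which counts as marked, but pool 2 of each group carried it on neither, so the probe missed the rule for a test. The spots of 1 array differed more than the groups did: in low-fertile pool 2 they read 19.25 and 9.584, beside a group difference of -0.22 in log2 level. The other SPACA1 probe, A_73_P254666, had surrogate values on all 4 arrays.

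The gamete adhesion and fusion genes of the list carried the background mark on no array. IZUMO1 encodes the sperm protein that binds the egg receptor JUNO, and ADAM2 encodes fertilin beta, a subunit of the complex through which sperm migrate in the oviduct and adhere to the zona. The IZUMO1 probe read 5.978 and 3.536 in the high-fertile and 7.193 and 5.891 in the low-fertile pools, with surrogate values in pool 2 of each group. A further probe carries the accession of an IZUMO1 transcript as its name and falls outside the rule, and it read 4.251, 4.241, 6.914 and 6.311 with no mark. ADAM2 probe A_73_P043501 read 11.53 and 25.31 in the high-fertile and 8.032 and 8.267 in the low-fertile pools, and the last of these was a surrogate value. High-fertile pool 2 was the high one, without reaching the mark. The second ADAM2 probe, A_73_105319, read 3.597 and 10.17 against 3.421 and 6.044, with the same pool highest. Its 3.597 and 6.044 were surrogate values.

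CRISP2 encodes a cysteine-rich protein of the acrosome and sperm tail. Its probes, A_73_118814 and A_73_P251656, lay between 4.241 and 9.82, and 5 of their 8 readings were surrogate values. Neither carried the mark on any array.

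**Figure D3:**
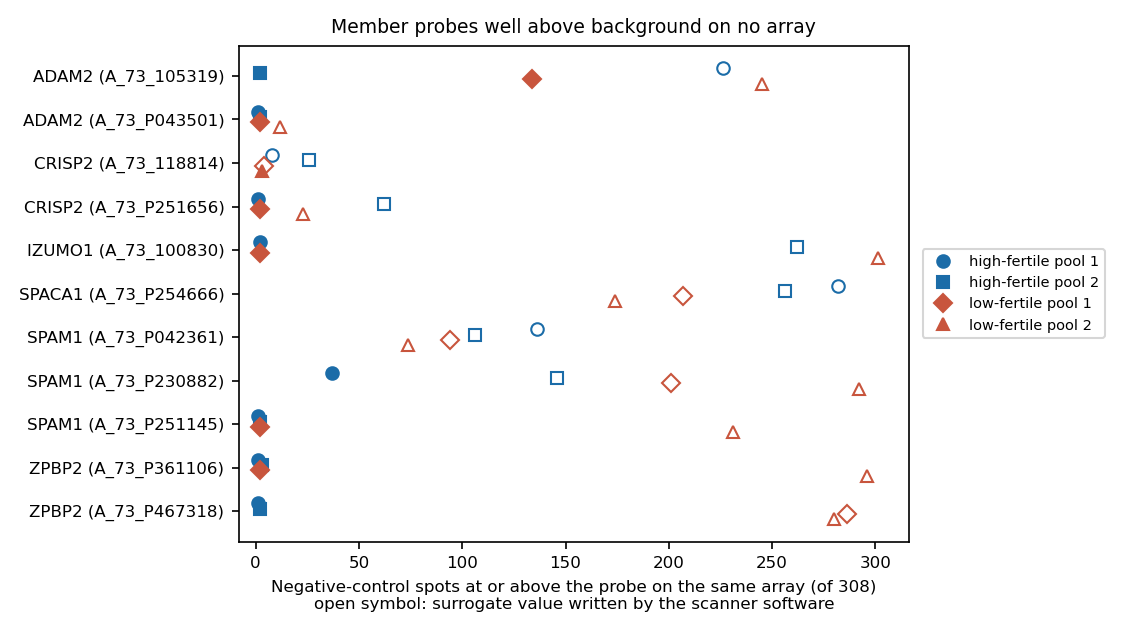
For the 11 member probes that were well above background on no array, the number of the 308 negative-control spots of the same array that were at or above the probe (linear axis), by pool, with open symbols for surrogate values. Low-fertile pool 2 has surrogate values for 10 of the 11 probes, against 4 to 6 in the other pools.

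PLCZ1 encodes phospholipase C zeta, the sperm factor that triggers calcium oscillations and so activates the egg. Its probe (A_73_P034671, chr5:98073061-98073120, plus strand) was well above background in all pools, at 46.28 and 33.49 in the high-fertile and 53.28 and 40.05 in the low-fertile pools. The groups overlapped, because the pools within each group differed by about as much as the groups. The log2 level was 0.09 ± 0.34 (SD, n = 2) against 0.41 ± 0.16, a difference of 0.32 (SE 0.21, 95% interval -0.21 to 0.85, adjusted p = 0.308, limma), and -0.06 with spike-in normalization, which shifts all probes alike. Leaving out high-fertile pool 2 gave 0.08, leaving out pool 1 of that group gave 0.56, and leaving out low-fertile pool 1 gave 0.20.

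**Figure D4:**
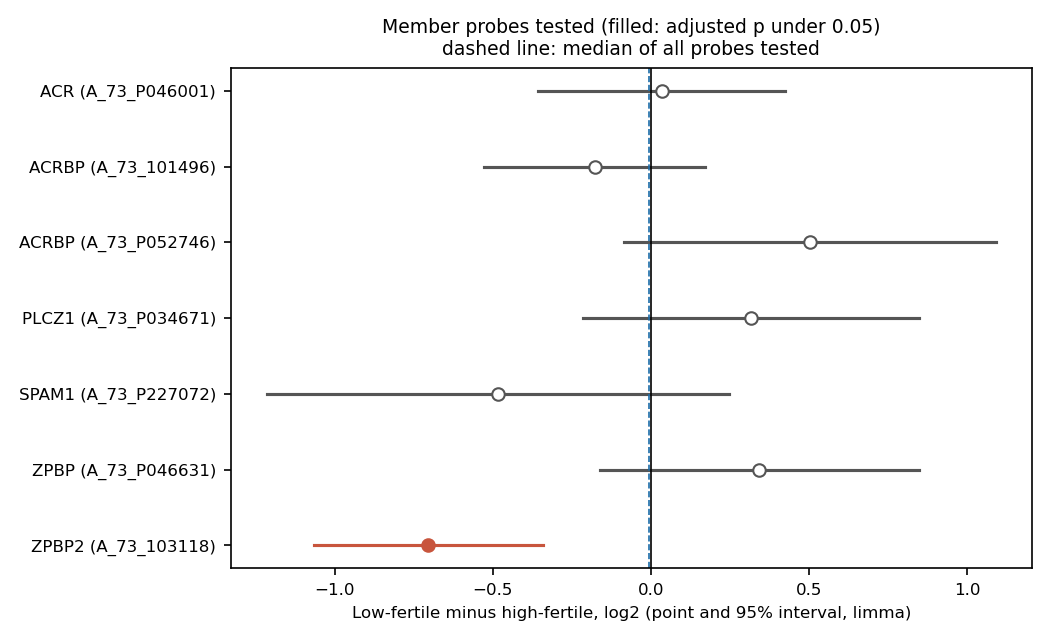
Low-fertile minus high-fertile difference in log2 level of the 7 tested member probes with its 95% interval in limma, filled where the adjusted p was under 0.05, with the median of all tested probes (-0.01 on this scale) as a dashed line. The interval of ZPBP2, admitted through the high-fertile pair alone, lies below 0, and those of the other 6 probes span 0.

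The 11 dim probes were not all alike in how far they stood from background. Of their 44 readings 25 were surrogate values, and 19 carried a weaker mark of the software, that the signal was positive and significant. These 19 fell on high-fertile pools 1 and 2 and low-fertile pool 1 with 7, 5 and 6 of 11 probes, and on low-fertile pool 2 with 1. Low-fertile pool 2 was also the array with the fewest probes well above background, 13033 against 23228 to 25642 on the others, and the highest median of the negative controls, 6.36 against 3.35 to 3.95. Its part in the results on SPAM1, ZPBP and the dim probes was not tested, apart from the values given without it. None of the 80 spot readings of the list was marked as an outlier or saturated. No value below the mark is read as absence of a transcript.

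The marked probes also differed from the others in base composition. The 8 probes with the mark on at least 1 array had a GC content of 40.0% to 55.0% (median 45.0%), and the 11 without it 35.0% to 45.0% (median 41.7%). Over the array the share of probes tested ran the same way, 20.5% of those with up to 40% GC, 42.0% of those over 40% and up to 50%, and 70.9% of those above. The part of base composition in which member genes were detected was not tested. The coordinates of 3 probes, all without the mark, spanned more than their 60 bases: 401 for IZUMO1, 1240 for ADAM2 probe A_73_105319 and 1787 for SPACA1 probe A_73_P254666.

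The wider set of genes of the same process was read next. Of 55 genes of acrosome formation, acrosomal contents and exocytosis, zona binding, fusion and egg activation, 45 were on the array, each read from the probe with the highest mean level. In limma 11 could be tested, 2 were lower in the low-fertile pools (17.6% of all tested probes were), 0 were higher (9.22% of all were) and 9 did not pass. The share of genes called lower is near that of the whole array. At an unadjusted p of 0.05, limma passed 4 of the 11, with ACTL7A and PCSK4 higher beside the 2 lower, and the methods' t-test 2, both lower, where 41.6% and 28.9% of all probes passed. The median difference of the 11 was 0.02, beside -0.01 over all tested probes. Well above background on no array were 22 of the 45, and on all 4 arrays 6.

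Among genes of acrosome formation, 3 were tested and 1 passed. AGFG1, which acts in the fusion of Golgi vesicles that build the acrosome, read 148.5 and 136 in the high-fertile pools against 53.61 and 47.93 in the low-fertile pools. All arrays were well above background and the low-fertile pools were clearly the lower ones. It fell by 1.40 on the log2 scale (SE 0.145, adjusted p = 0.00349, limma), from 1.95 ± 0.10 to 0.54 ± 0.01 (SD, n = 2). A second AGFG1 probe, A_73_P409436, read 40.21 and 39.76 against 3.73 and 7.369, where neither low-fertile array was well above background, and was at least 5.10-fold higher in the high-fertile pools. That probe entered the test through the high-fertile pair alone, and its adjusted p of 0.00601 in limma is conditional on that filter, as for ZPBP2. The last AGFG1 probe, A_73_P032131, carried the mark on no array and read the other way, at 4.388 and 5.659 against 10.09 and 12.14. AGFG1 is also made in other cell types, so its level is not particular to sperm.

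Among acrosomal contents and exocytosis 5 genes were tested and 1 passed. ACRV1, which encodes the acrosomal antigen SP-10, read 27.8 and 33.82 in the high-fertile pools against 19.52 and 16.39 in the low-fertile pools. Each low-fertile pool was below each high-fertile pool, and the last array lacked the background mark. The difference was -0.69 (SE 0.16, adjusted p = 0.0306, limma), from -0.27 ± 0.19 to -0.96 ± 0.05 (SD, n = 2). That call was lost in limma when any single pool was left out, with adjusted p between 0.062 and 0.145. ACRV1, like ZPBP2, entered the test through the high-fertile pair alone, among probes of which 30.1% were called lower, so the call is no independent support for a difference. Among the others of this group, PCSK4, a proprotein convertase of the acrosome, differed by 0.57 (adjusted p = 0.0946, limma) with both low-fertile pools above both high-fertile pools. Of the genes of zona binding, adhesion and fusion 3 were tested and 0 passed at either p in limma, and neither of the egg activation genes beside PLCZ1 could be tested.

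**Figure D5:**
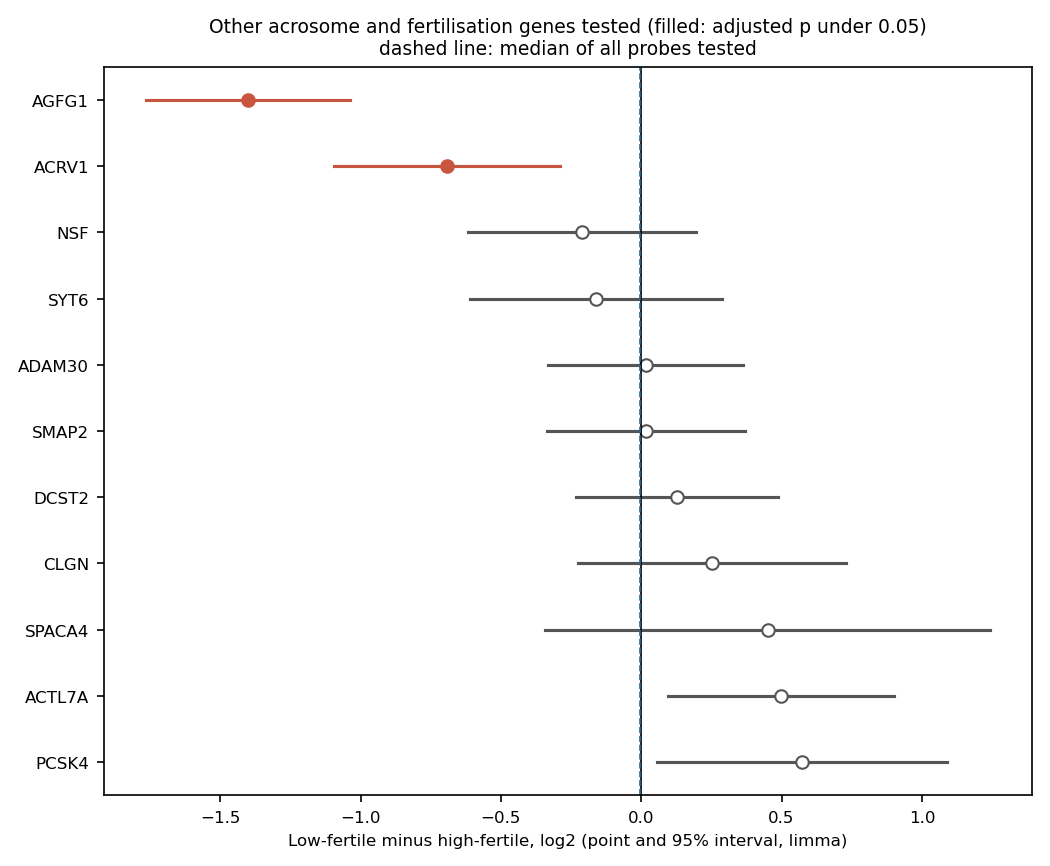
Low-fertile minus high-fertile difference in log2 level of the 11 tested genes of acrosome and fertilisation outside the list of 10, each from the probe with its highest mean level, with the 95% interval in limma and filled points where the adjusted p was under 0.05. AGFG1 at -1.40 and ACRV1 at -0.69 are the filled points, and PCSK4 at 0.57 is the highest.

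The labelled cell type was checked against marker genes read in the same way. Of 13 sperm markers, 3 (PRM1, TNP1 and ODF1) were well above background on all arrays, while 5 (AKAP3, AKAP4, SMCP, LDHC and PGK2) were so on none. The summed processed signal of the 13 ran from 551 to 688 in the high-fertile and from 505 to 538 in the low-fertile pools. Without PRM2, whose spot in high-fertile pool 1 had 5 of its 6 neighbours off, the sums were 508 and 537 against 524 and 496. Of the 5 sperm markers tested, 1 passed, beside 26.8% of all tested probes: PRM1, a protamine that packs sperm DNA, was higher in the low-fertile pools by 0.67 (adjusted p = 0.0232, limma), while the median of the 5 was -0.05 and ODF1 differed by -0.18, GAPDHS by -0.15, TNP1 by -0.05 and ODF2 by 0.51. A second GAPDHS probe, A_73_P047101, read 25.22 and 24.24 against 8.837 and 13.33, with the mark on the high-fertile arrays alone. Of 8 leukocyte markers 5 were well above background on all arrays, with sums of 7909 and 8136 against 12500 and 12350. Most of that sum is 1 PTPRC probe, higher in the low-fertile pools by 0.78 (adjusted p = 0.016, limma). Another PTPRC probe, A_73_P476493, read 73.46 and 70.78 against 82.14 and 72.41, and the remaining pair carried the mark on no array. Of 6 epithelial markers 4 were well above background on all arrays, with sums of 845 to 848 against 883 to 896. Of 3 red cell markers HBB differed by 1.24 (adjusted p = 0.0118, limma). It was admitted through the low-fertile pair alone, so the call is no independent support. HBA differed by -0.17 (adjusted p = 0.705, limma), with sums for the 3 of 173 to 294 against 218 to 221. The 2 HBA spots of high-fertile pool 2 disagreed, at 151.6 and 438.4, while those of the other pools read 137.2 to 168.5. The HBA difference and the sum of 294 include the brighter spot, and neither was computed without it. The part of other cells in the acrosomal results was not tested. In pooled RNA, fewer cells of a type and less RNA per cell cannot be told apart.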

How the data were processed

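RNA of 4 pools (2 high-fertile, 2 low-fertile, 2 bulls each) was measured on a 1-dye Agilent bovine array. Per the file headers, the authors extracted images with Feature Extraction 11.5.1.1, and the deposited scanner output gives each spot's intensity on a linear scale, after background subtraction, besides its marks. A deposited table gives log2 values that the authors shifted by the 75th percentile in GeneSpring. It lay within a median of 0.00903 of the log2 values recomputed here and served as an alternative. All columns were mapped to a pool.

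Spots marked as outliers were left out, log2 spots of a probe were averaged (a mark needed at least 0.5 of the spots) and the 75th percentile of non-control probes was subtracted, in Python 3.11.15 with pandas 2.3.3 and numpy 2.4.6. Probes were kept for the fit (21033) when either group had the well-above-background mark on both its arrays, and limma 3.58.1 (R 4.3.3) was used, with Benjamini-Hochberg adjustment over all of them. A bound took, per dim array, the higher of the probe's own value and the lowest signal well above background there. For ZPBP2 it equalled the measured fold, which is given as such. The scripts were tested on simulated data.

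The members and gene lists were chosen with earlier results of these data known. All member probes are reported. Of the wider list, the 5 genes called lower and the 5 called higher with the largest differences were to be named. The marker genes with values, the genes named at an unadjusted p and the other AGFG1 probes were named after their values were seen. Of the 10 genes, 7 matched the same RefSeq symbol by accession (assembly ARS-UCD2.0), and the file's names were kept.

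Which bulls formed which pool is not given in the sources used here, so p-values measure the spread between these pools. The slide held the high-fertile arrays in 1 row and the low-fertile arrays in another, so position and group cannot be told apart. With 2 pools against 2, an exact permutation test cannot go below a two-sided p of 0.333, so none was run. The number of arrays limits the precision, and the median SE of a log2 difference was 0.17.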

Additional observations from a re-analysis of the deposited data

How the results depend on the processing

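The count of tested member probes called was 1, and it was 0 with quantile normalization, normexp background correction, no filter, the test limited to probes well above background on all arrays (which drops ZPBP2), an intensity trend and the methods' t-test, 2 with spike-in normalization, and 0 to 2 when a single pool was left out. Spike-in normalization moved the median of all tested probes to -0.38 and called ACRBP probe A_73_101496 lower by 0.55 (adjusted p = 0.0312, limma). Wider-list genes called lower numbered 2, and 1 with the percentile over detected probes, normexp or the mark required on all arrays, 0 with no filter or the methods' t-test, 4 with spike-ins and 1 with any single pool left out. With no filter and by the methods' t-test 0 probes of the whole array were called, and with spike-ins 32.1% were called lower. A group left with 1 pool is assumed to vary like the other. Those called higher numbered 0, and 2 with the mark required on all arrays (where 21.6% of all probes were higher) and 0 to 1 with a pool left out. AGFG1 was called lower under 14 of 16 alternatives, ACRV1 under 7 of 15 and ZPBP2 under 7 of 15, and none of these changed sign. Member probes detected numbered 7, and 4 by the mark on all arrays, 8 by the mark on any and 12 by the weaker mark.

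With spike-ins a positive difference smaller than the common shift had to turn. The sign turned for ACR with spike-ins (-0.34), normexp (-0.059) and without low-fertile pool 2 (-0.084, against 0.15 without low-fertile pool 1), for PLCZ1 (-0.055) and ZPBP (-0.028) with spike-ins, and for ACRBP probe A_73_101496 with normexp (0.007). None of these values passed the test, and the causes were not tested. With the replicate number as a block, 1 member probe was still called (ZPBP2, -0.70, adjusted p = 0.0352, limma) and 2 genes of the wider list were lower. The sources used here do not pair the pools by number, and same-numbered deviations correlated at 0.0055 over 21024 probes. A correlation near 0 over the whole array cannot show that same-numbered pools share nothing.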

Other observations

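A pair of untested genes of the wider list, chosen after their values were seen, stood out in 1 pool. IZUMO2, a relative of IZUMO1, read 77.17 in high-fertile pool 2 against 12.79 in high-fertile pool 1 and 20.5 and 13.23 in the low-fertile pools. CRISP1, an epididymal relative of CRISP2 that coats sperm, read 65.82 in high-fertile pool 2 against 4.552, 18.67 and 9.663. Of the 6 neighbours of the IZUMO2 spot 3, 4, 3 and 4 on the 4 arrays, in the order of high-fertile and then low-fertile pools, and of those of the CRISP1 spot 2, 3, 1 and 1, were off by over 2 log2 units from their mean over the other arrays. A second IZUMO2 probe lay between 3.134 and 5.97 and was well above background on no array. The sperm protamine PRM2 read 179.9 in high-fertile pool 1 and 9.584 to 14.65 in the other pools, with 5 of the 6 nearest spots off in that pool and 1 to 3 in the others.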
